A study of Mus musculus with 13 samples.

Results

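Universal adventitial fibroblasts are connective tissue cells that line the outer coat of vessels in most organs, and they are known from single-cell atlases by a shared set of surface and matrix genes. The genes followed here are Pi16, Dpp4, Dpt, Cd34, Ly6a, Clec3b, S100a4, Thy1, Scara5 and Tnxb. These 10 genes, taken as a named set and found by their symbols, are 10 of the 23211 genes in the count matrix. Several of them are not private to fibroblasts. Cd34 and Ly6a are also carried by haematopoietic progenitors and endothelial cells, Thy1 and Dpp4 by T cells, and S100a4 by many leukocytes. In bone marrow, stromal cells that bear the leptin receptor are known for making Cxcl12 and other niche factors.

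The samples were 13 RNA-seq libraries of mouse cells that the labels describe as positive for the leptin receptor and negative for lineage markers, sorted by flow cytometry from tissue around a tibia implant. The labels place 7 libraries in fibrous tissue (implant named PMMA) and 6 in bone (implant named Pressfit), and no genotype, strain, age, sex or time after implantation is given. The library names divide into the L002 series (4 bone, 5 fibrous) and the XY9274 series (2 bone, 2 fibrous), and 3 names of the L002 series hold Lin in place of plus (bone 3, bone 4 and fibrous 5), while that of fibrous 1 holds neither. Nothing in the labels ties a library to an animal, so the spread that the p-values measure is that between libraries and may be technical.

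Totals ran from 16162321 to 44302166 counts per library. A value of 0 counts allows up to between 0.0562 and 0.301 normalised CPM (counts scaled to the library's size and TMM factor), taking 3 counts as the limit, and covers counting error only. The labelled cell type was checked by Lepr. It lay between 46.7 and 804 CPM in 8 libraries and between 0.469 and 2.42 CPM in the other 5 (bone 3, bone 4, bone 5, fibrous 1 and fibrous 5). Cxcl12, a companion of Lepr in marrow stroma, was at 376 to 7965 CPM in the 8 and at 5.48 to 32.7 CPM in the 5. The erythroid list (Hbb-bs, Hba-a1 and 6 others) had its 4 highest sums in bone 4, bone 3, fibrous 5 and fibrous 1 (593858, 392943, 235817 and 137639 CPM), and the remaining library low in Lepr, bone 5, had the highest leukocyte sums. The comparison of tissues is therefore also given for the 8 libraries alone. Genes that most fibroblasts share (Pdgfra, Dcn, Col1a1 and 12 others) ranged in sum from 1216 to 59028 CPM over bone and from 7064 to 84648 CPM over fibrous libraries. In bulk RNA, fewer cells of a type and less RNA per cell cannot be told apart.

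The data bore out the set's name only in part. Clec3b and Thy1 were under 1 CPM in all 13 libraries, and Tnxb was above 1 CPM in 1 library. The 10 genes together came to between 10.07 CPM (bone 6) and 213 CPM (bone 5). Only 2 libraries, fibrous 2 and fibrous 7, held a count of all 10. The genes are therefore described one by one and not as a cell type.

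Promoter sequences are shown for the 4 members on which the results turn: Cd34 and Dpt, which were at or near 0 in most bone libraries, and Pi16 and Dpp4, whose highest values were both in bone 5. Each run is the 250 bases before the transcript start in RefSeq (build GRCm38.p6), written 5' to 3' on the gene's strand, and RefSeq entries were found for 6 of the 10 members. The RefSeq starts of Pi16, Dpt and Cd34 lie inside the GENCODE genes, downstream of their first bases. The Pi16 stretch thus lies wholly inside the gene, and those of Dpt and Cd34 only with their last bases. Capitals mark matches, on either strand, to 4 promoter motifs: the TATA box TATAAA, the GC box GGGCGG, the CCAAT box CCAAT and the AP-1 site TGANTCA.
Cd34, chr1:194938571-194938820, plus strand: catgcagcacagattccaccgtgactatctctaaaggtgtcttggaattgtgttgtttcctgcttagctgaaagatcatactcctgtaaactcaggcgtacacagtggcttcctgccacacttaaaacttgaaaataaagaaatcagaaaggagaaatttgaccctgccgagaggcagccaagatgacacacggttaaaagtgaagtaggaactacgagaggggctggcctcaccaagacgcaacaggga
Dpt, chr1:164796413-164796662, plus strand: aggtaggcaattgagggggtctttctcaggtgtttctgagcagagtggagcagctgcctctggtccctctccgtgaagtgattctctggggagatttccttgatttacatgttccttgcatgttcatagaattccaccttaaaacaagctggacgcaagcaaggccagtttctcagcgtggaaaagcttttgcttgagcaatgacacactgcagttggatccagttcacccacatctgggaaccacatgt
Pi16, chr17:29318632-29318881, plus strand: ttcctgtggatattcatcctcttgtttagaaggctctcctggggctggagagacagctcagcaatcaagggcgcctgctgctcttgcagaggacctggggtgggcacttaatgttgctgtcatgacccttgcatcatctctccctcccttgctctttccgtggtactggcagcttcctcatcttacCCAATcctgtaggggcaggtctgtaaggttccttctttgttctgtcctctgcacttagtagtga
Dpp4, chr2:62412232-62412481, minus strand: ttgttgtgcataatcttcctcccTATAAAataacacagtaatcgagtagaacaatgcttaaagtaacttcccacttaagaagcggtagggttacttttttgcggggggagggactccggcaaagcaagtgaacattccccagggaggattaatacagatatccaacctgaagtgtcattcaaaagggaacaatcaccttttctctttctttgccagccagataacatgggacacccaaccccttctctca

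None of the 4 motifs was found in the Cd34 and Dpt stretches. The Pi16 stretch held CCAAT at -64 to -60 from the start, and the Dpp4 stretch held TATAAA at -227 to -222. Over 32851 RefSeq promoters of the same length, 33.8% held CCAAT, 12.4% TATAAA, 32.7% GGGCGG and 6.75% TGANTCA on either strand, and a match is a match of letters only.

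Levels between genes were compared per kilobase of merged exons. By the median over 13 libraries Ly6a stood first at 11.4 CPM per kilobase, followed by S100a4 at 4.03, Cd34 at 0.515, Pi16 at 0.489, Dpt at 0.252, Dpp4 at 0.212 and Scara5 at 0.0165 CPM per kilobase. The medians of Clec3b, Thy1 and Tnxb were 0. The ranges of every pair of neighbours in this order overlapped. Within libraries Ly6a was above S100a4 in 11 of 13 and S100a4 above Cd34 in 13 of 13, whereas Cd34 was above Pi16 in only 5. Ly6a and S100a4 thus made a more even upper layer, and the genes below them changed places from library to library.

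**Figure D1:**
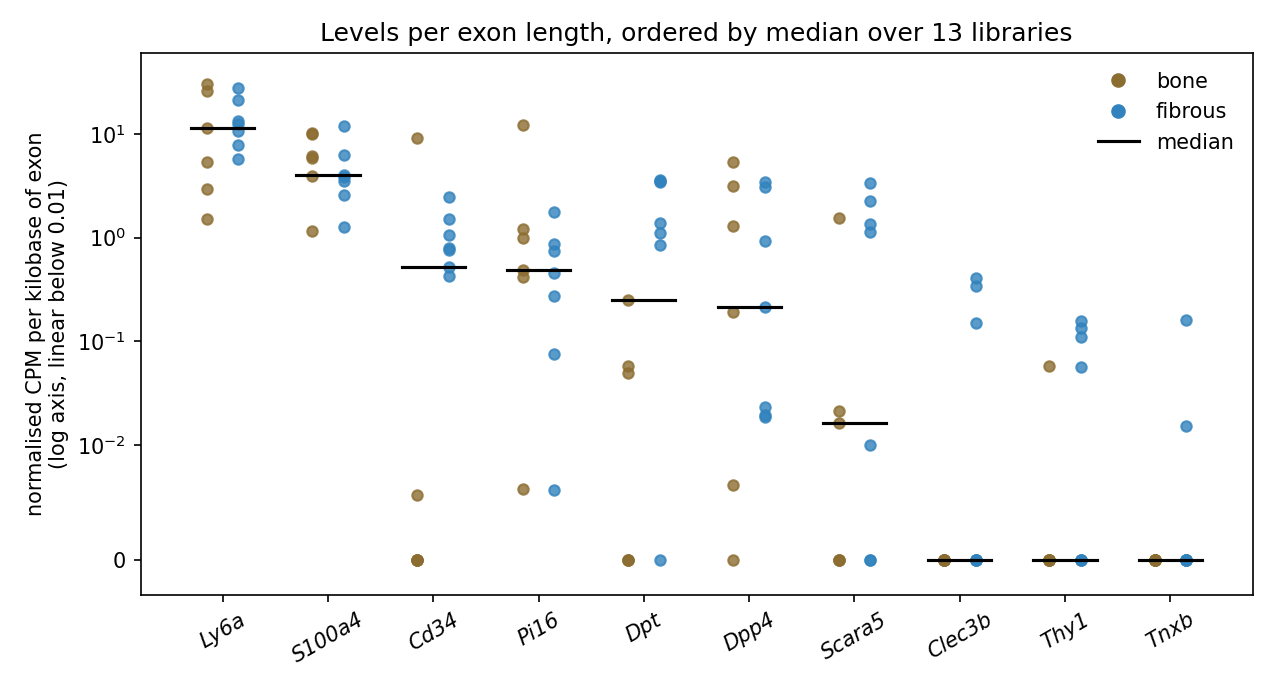
Normalised CPM per kilobase of exon (vertical, log axis, linear below 0.01) for each of the 10 genes (horizontal), with 1 point per library, brown for bone and blue for fibrous, and a line at the median over 13 libraries. Ly6a and S100a4 lie at the top with points in every library, and Clec3b, Thy1 and Tnxb have their medians at 0.

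The study's comparison of fibrous with bone tissue asks how the sorted cells differ between these peri-implant tissues. Among the 10 genes, Dpt and Cd34 had the widest gaps: Dpt was at 1.46 CPM or more in 6 of 7 fibrous libraries and under 0.5 CPM in every bone library, and Cd34 was at 3.12 CPM or more in all 7 fibrous libraries and at 1 count or none in 5 of 6 bone libraries. Neither passed the threshold of 0.05 in the main test, edgeR's quasi-likelihood test with Benjamini-Hochberg adjustment over all genes. Ly6a, S100a4, Pi16 and Dpp4 had values in both tissues with overlapping ranges.

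The filter on low counts passed 6 of the 10 members (Pi16, Dpp4, Dpt, Cd34, Ly6a and S100a4). Of these 6, 0 passed the threshold, as did 0% of the 13294 genes tested, and 1 (Dpt) had an unadjusted p under 0.05, against 4.78% of all genes. With limma-voom 0 members passed, and 0% of all genes did. With DESeq2, 2 of the 6, Dpt and Cd34, passed with higher values in fibrous libraries, against 1.14% of all genes. Both met the filter through fibrous libraries, since 0 bone libraries (Dpt) and 1 (Cd34) were at 1 CPM or more. The 2 of 6 therefore cannot be read as an excess over that share. Fold changes were above 0 for 3 of the 6 and for 51.9% of all genes, and the median log2 fold change was -0.14 for the 6 and 0.026 for all genes. The 6 fold changes thus had no common sign, and the count of 3 in 6 lies close to the background.

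**Figure D2:**
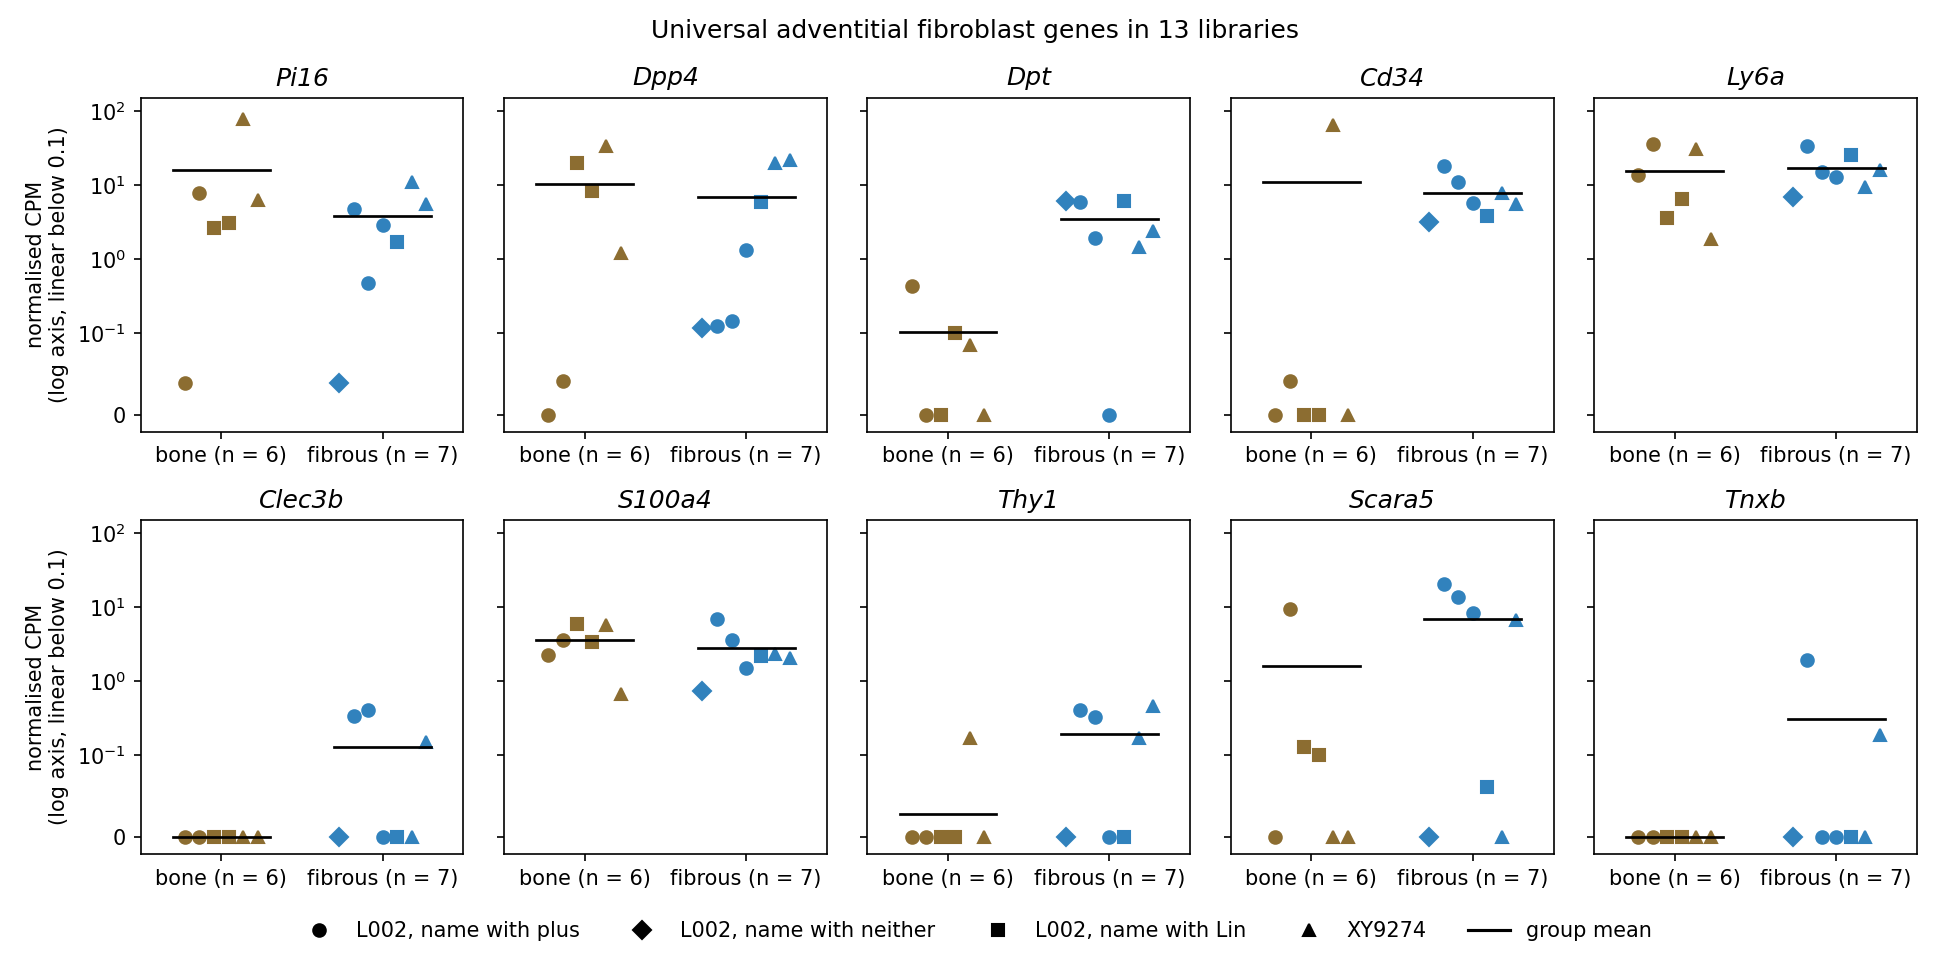
Normalised CPM (vertical, log axis, linear below 0.1) of each of the 10 genes in 6 bone and 7 fibrous libraries, with 1 point per library, its shape giving the library name class, and a line at each group's mean. Cd34 in bone shows bone 5 at 65.7 CPM above 5 libraries at 1 count or none, while Dpt in bone stays under 0.5 CPM throughout.

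Cd34 (ENSMUSG00000016494, mm10 chromosome 1, 194938819 to 194961279, plus strand) encodes a sialomucin of the cell surface, known on adventitial fibroblasts, haematopoietic progenitors and endothelium. In fibrous 1 to 7 it was at 3.12, 17.9, 10.9, 5.80, 3.75, 7.71 and 5.55 CPM. In bone 1 to 6 it was at 0, 0.0414, 0, 0, 65.7 and 0 CPM, which is 1 count in bone 2 and 3065 counts in bone 5. Every fibrous library was therefore above 5 of the 6 bone libraries and below bone 5. The fibrous mean was 7.82 ± 5.14 CPM (SD, n = 7) and the bone mean 10.96 ± 26.8 CPM (SD, n = 6), and the bone mean without bone 5 was 0.00829 ± 0.0185 CPM (n = 5).

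With the name series as a term, edgeR gave Cd34 a log2 fold change of 6.16 (SE 3.12, adjusted p = 0.873), a sign opposite to that of the group means, which bone 5 sets. Without the series term it was -0.49. The fitted size depends on the prior count, since 4 bone libraries were at 0. DESeq2 gave 7.26 (SE 1.63, adjusted p = 0.00303), and -0.54 with no adjusted p when the series term was left out. With single libraries left out, DESeq2 gave no adjusted p without fibrous 2 or fibrous 3 and passed in the other 11 cases, up to an adjusted p of 0.0203.

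Within the L002 series, every fibrous library was above every bone library for Cd34, as for 1.5% of the genes tested. The edgeR log2 fold change there was 8.83 (SE 1.43, adjusted p = 0.274). Within XY9274 it was -2.40 (SE 2.72, adjusted p = 1.00), with bone 5 at 65.7, bone 6 at 0 and the fibrous pair at 7.71 and 5.55 CPM. The interaction of series and tissue had an unadjusted p of 0.00453 for Cd34 and an adjusted p of 1.00 by edgeR. Of the 6 members 1 was under 0.05 unadjusted, against 2.2% of all genes, and 0 members and 0% of all genes passed after adjustment, while DESeq2 called 25 genes over the whole table.

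Bone 5 also stood apart for other cells' transcripts. Its pan-leukocyte list (Ptprc, Cd52 and 6 others) summed to 7261 CPM, where the other libraries had 107 to 2064 CPM. Its haematopoietic progenitor list (Kit, Flt3 and 6 others) summed to 439.99 CPM, where the others had 34.5 to 251 CPM. All 8 of that list's genes were in the matrix, with Kit at 158 CPM in bone 5. The endothelial list of 11 genes, 10 of them in the matrix, summed to 32.4 to 88.3 CPM in bone and 31.2 to 81.8 CPM in fibrous libraries, with Cdh5 under 1 CPM everywhere. Pecam1 of that list was highest in bone 5 (43.1 CPM) and then in fibrous 6 (34.1 CPM), where the other 11 libraries had 0.0918 to 12.03 CPM. Among fibrous libraries the progenitor list was highest in fibrous 6 and fibrous 7 (251 and 243 CPM), and it was at 46.1 and 34.5 CPM in fibrous 2 and fibrous 3, which had the highest Cd34. The part of these cells in the Cd34 values was not tested.

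Dpt (ENSMUSG00000026574, chromosome 1, 164796644 to 164824266, plus strand) encodes dermatopontin, a small matrix protein that binds decorin and collagen fibrils. In fibrous 1 to 7 it was at 6.17, 5.95, 1.91, 0, 6.09, 1.46 and 2.39 CPM. In bone 1 to 6 it was at 0.434, 0, 0, 0.1003, 0.0857 and 0 CPM, with 16 counts in all 6 libraries against 705 counts in the 7 fibrous ones. Only fibrous 4, at 0, fell into the bone range, and the high values came from libraries with high Lepr (fibrous 2) and with Lepr near 0 (fibrous 1 and fibrous 5) alike.

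The edgeR log2 fold change of Dpt was 4.97 (SE 1.47, adjusted p = 0.873), with 4.78 in L002 alone and 5.26 in XY9274 alone. With 1 library left out it stayed between 4.65 and 6.27. DESeq2 gave 4.98 (SE 1.29, adjusted p = 0.0168), but the call was lost without fibrous 1, 2, 3 or 7 (adjusted p = 0.0637, 0.0983, 0.0531 and 0.0743). Gm32569, an antisense gene that overlaps Dpt, held 42 counts in 3 libraries, among them fibrous 6 with 28, and since the use of strand is not given, reads from the 2 genes cannot be told apart.

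No member had every fibrous library above every bone library, as 0.0527% of all genes did. Leaving out the 5 libraries with Lepr under 5 CPM gave 3 bone and 5 fibrous libraries (bone 1, 2 and 6 and fibrous 2, 3, 4, 6 and 7). In these 8, Cd34 lay between 0 and 0.0414 CPM in bone and between 5.55 and 17.9 CPM in fibrous libraries, without overlap, as for 2.38% of all genes. The edgeR log2 fold change of Cd34 was 9.33 (SE 1.28, adjusted p = 0.616) and that of Dpt 4.50 (SE 2.48, adjusted p = 0.810). DESeq2 called Cd34 (adjusted p = 6.64e-09) and Dpp4 (4.36, adjusted p = 0.0149) but not Dpt (adjusted p = 0.330), against 2.31% of all genes called higher. Dpp4 was there at 0, 0.0414 and 1.22 CPM in bone 1, 2 and 6 and at 0.124, 0.147 and 1.34 CPM in fibrous 2 to 4. Its high values, 19.6 and 21.5 CPM, were in fibrous 6 and 7 of the XY9274 series, where bone 6 was the only bone library left.

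Scara5 passed the filter in these 8 libraries as a seventh member. Of the 7, 6 had fold changes above 0, against 53.4% of all genes, and their median was 2.73, against 0.048 for all genes. The filter asks for counts in as many libraries as the smaller group holds. Cd34, Dpt, Dpp4 and Scara5 met this only through fibrous libraries. The count of 6 in 7 and the median, which is the value of Scara5 itself, are therefore no measure of direction. By edgeR 0 of the 7 passed, as did 0% of 14635 genes, and 2 (Cd34 and Dpp4) had an unadjusted p under 0.05, against 6.24% of all genes. DESeq2 called the same 2. Since both met the filter only through fibrous libraries, neither count can be read as an excess over the share of all genes. The direction of Dpp4 turned here, from -1.504 (SE 1.52) over 13 libraries to 4.28 (SE 1.27), and Pi16 went from -1.25 to -0.17 (SE 1.34).

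Lists of other cells also lay away from 0 in that fit. The progenitor list had 6 of 8 genes above 0 with a median of 5.36, and the T cell list 3 of 5 tested genes with a median of 4.30. Over 13 libraries 4 genes of each of these 2 lists passed the filter, with medians of -0.35 and 0.55. The medians of the 2 fits thus cover unlike sets of genes and do not show a shift of the lists. The neutrophil and pan-leukocyte lists had 8 of 8 genes each below 0 (medians -1.34 and -0.73). None of these list genes passed the threshold by edgeR, and their part in the members' values was not tested.

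**Figure D3:**
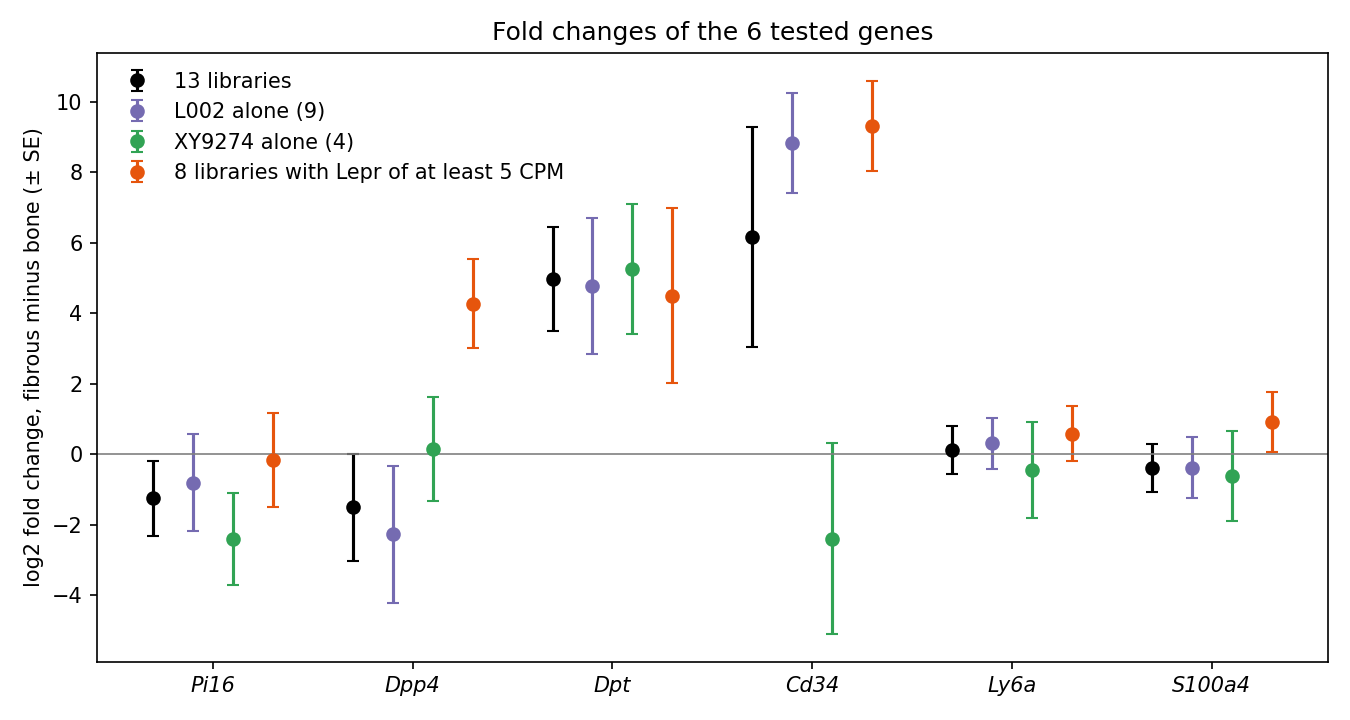
Log2 fold changes of fibrous minus bone by edgeR (vertical, with SE bars) for the 6 members that passed the filter over 13 libraries, fitted over all 13, the L002 series, the XY9274 series and the 8 libraries with Lepr of at least 5 CPM. Dpt lies between 4.50 and 5.26 in all 4 fits, and Pi16 stays below 0, whereas Cd34, Dpp4, Ly6a and S100a4 change sign between them.

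Dpp4 and Pi16, the surface peptidase and the secreted peptidase inhibitor by which adventitial progenitors are commonly sorted or named, did not follow tissue. Pi16 (ENSMUSG00000024011, chromosome 17, 29317680 to 29330593, plus strand) was at 0.0394, 7.75, 2.64, 3.11, 77.1 and 6.33 CPM in bone 1 to 6 and at 0.0390, 4.74, 0.478, 2.92, 1.72, 11.1 and 5.49 CPM in fibrous 1 to 7. The highest value was in bone 5 and the lowest, at 1 count each, in bone 1 and fibrous 1. The group ranges overlapped, and the log2 fold change was -1.25 (SE 1.07, adjusted p = 0.881 by edgeR). Without bone 5 it was -0.53.

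The neutrophil list (S100a8, S100a9, Ngp and 5 others) had its highest sum and its 3 lowest sums in the libraries with the highest and the 3 lowest Pi16 values. It summed to 92755 CPM in bone 5, where Pi16 was highest, and to 663, 766 and 1534 CPM in fibrous 1, fibrous 3 and bone 1, the 3 libraries where Pi16 was under 1 CPM. In the other 9 libraries that list summed to between 6044 and 37936 CPM and Pi16 lay between 1.72 and 11.1 CPM. Within these 9 the order was loose. Bone 3 and bone 4, with sums of 32540 and 28474 CPM, had Pi16 at 2.64 and 3.11 CPM. Fibrous 6 and fibrous 2, with sums of 23278 and 7636 CPM, had it at 11.1 and 4.74 CPM. The tested genes most like Pi16 over the 13 libraries were Padi4 (Spearman rho 0.989), Igsf6 (0.967) and Clec5a (0.960), out of 12460 compared. Padi4, a peptidylarginine deiminase, and Clec5a, a C-type lectin receptor, are known from neutrophils and monocytes. First by the same measure were Cd83 for Cd34 (0.942), Cpsf3 for Ly6a (0.945) and Slc22a21 for Dpt (0.874). The libraries share depth and composition, so these values only describe them, and the part of leukocytes in the Pi16 values was not tested.

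Dpp4 (ENSMUSG00000035000, chromosome 2, 62330073 to 62412231, minus strand) was at 0, 0.0414, 19.7, 8.23, 33.6 and 1.22 CPM in bone 1 to 6. The fibrous libraries 1 to 7 had it at 0.117, 0.124, 0.147, 1.34, 5.85, 19.6 and 21.5 CPM. Values of 5 CPM or more thus came from the 3 Lin-named libraries, bone 5 and the XY9274 fibrous pair, in both tissues. The log2 fold change was -1.504 (SE 1.52, adjusted p = 0.905 by edgeR), and it was 1.09 with the Lin-named libraries as a level of their own in the name term.

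The genes most like Dpp4 were Fcer2a (rho 0.917), the low-affinity IgE receptor known from B cells, Pira2 (0.912) and the immunoglobulin kappa segment Igkv14-111 (0.911), over 13 libraries. The T cell list (11 genes, 10 in the matrix) summed to 7.83 to 45.6 CPM in bone and 5.73 to 50.2 CPM in fibrous libraries. Cd3e was above 0 only in bone 5, fibrous 6 and fibrous 7 (0.943, 1.48 and 0.0188 CPM), 3 of the libraries high in Dpp4, and was at 0 in the Lin-named ones. Of the list's 4 genes tested between Lin-named and other L002 libraries, 3 were above 0 (median 1.70), and 0 passed by edgeR. The 4 were Trac at 4.27 (SE 3.01), Cd2 at 3.34 (SE 1.62), Lck at 0.069 (SE 0.88) and Il7r at -1.32 (SE 2.56). The pan-leukocyte list was highest in bone 5 (7261 CPM), as Dpp4 was, and stood at 1863 and 2064 CPM in bone 3 and fibrous 6, where Dpp4 was at 19.7 and 19.6 CPM. It was at 1706 CPM in bone 2, where Dpp4 had 1 count. From fibrous 2 to fibrous 5 it went from 471 to 763 CPM, and from bone 2 to bone 4 from 1706 to 1094 CPM. The part of other cells in the Dpp4 values was not tested.

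**Figure D4:**
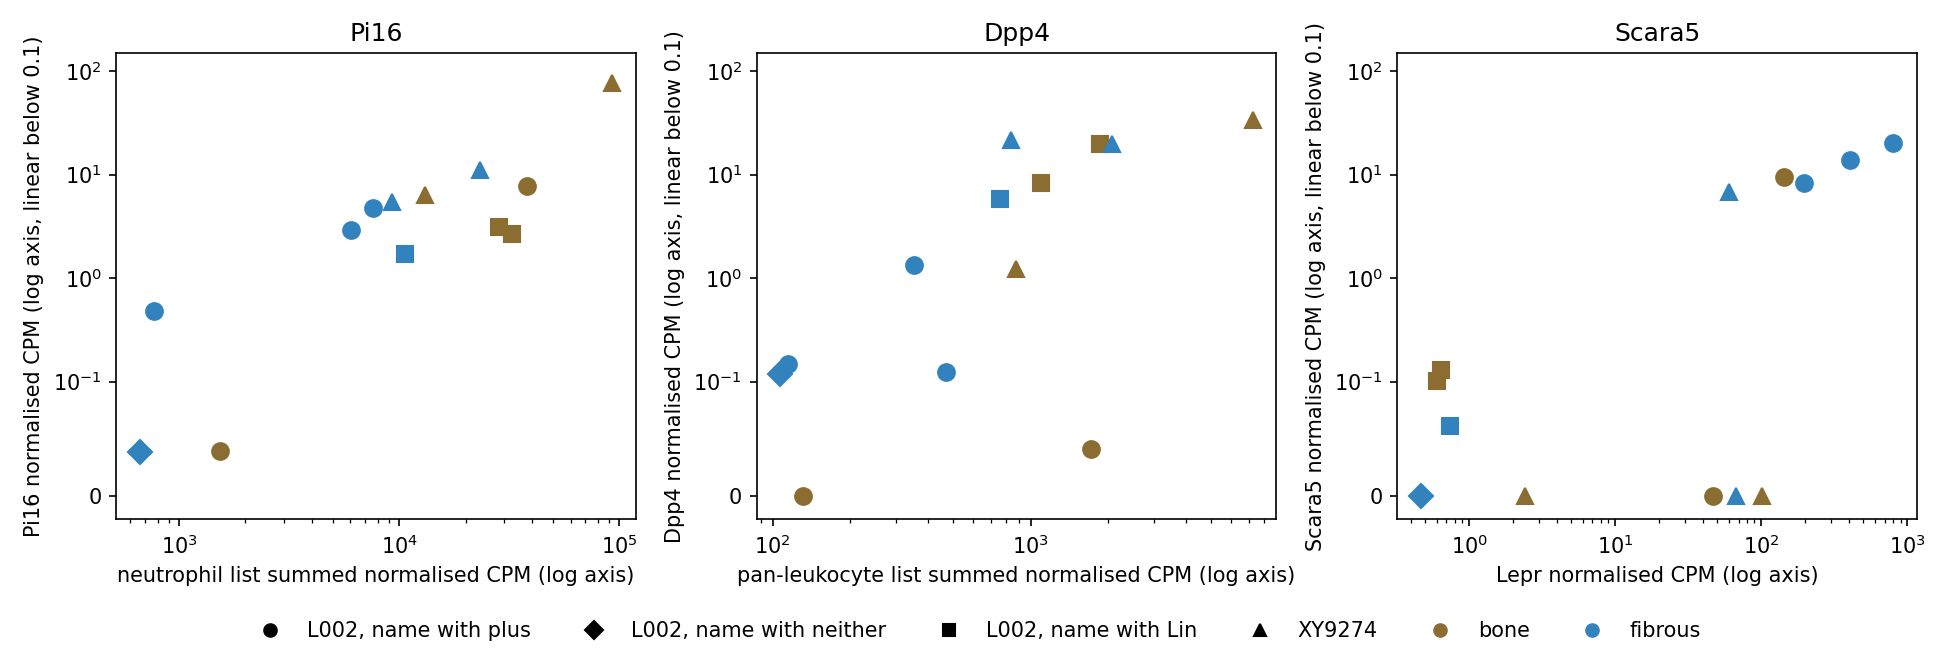
Normalised CPM per library of Pi16 against the summed neutrophil list, of Dpp4 against the summed pan-leukocyte list and of Scara5 against Lepr (all log axes, the vertical linear below 0.1), with colour for tissue and shape for library name class. Pi16 is highest where the neutrophil list is highest, in bone 5 at 77.1 CPM, and Scara5 is above 5 CPM only at Lepr of 60.3 CPM or more.

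Scara5 (ENSMUSG00000022032, chromosome 14, 65666403 to 65764826, plus strand) encodes a scavenger receptor that takes up ferritin. In bone 1 to 6 it was at 0, 9.41, 0.129, 0.1003, 0 and 0 CPM, and in fibrous 1 to 7 at 0, 20.45, 13.8, 8.24, 0.0616, 0 and 6.82 CPM. The 5 libraries above 1 CPM all had Lepr of 60.3 CPM or more, but bone 6 and fibrous 6, with Lepr at 102 and 67.2 CPM, held 0 counts. The filter removed it, and the difference in mean log2(CPM + 1) was 1.47 (2-sided exact permutation p = 0.217 over 1716 splits).

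Ly6a (ENSMUSG00000075602, chromosome 15, 74994877 to 74998031, minus strand) encodes Sca-1, a small GPI-anchored surface protein. It was the most even of the surface genes, at 13.7, 36.0, 3.54, 6.42, 30.8 and 1.84 CPM in bone 1 to 6 and at 6.91, 33.4, 14.8, 12.7, 25.5, 9.36 and 16.1 CPM in fibrous 1 to 7. The groups overlapped, the fibrous mean being 17.0 ± 9.36 CPM (SD, n = 7) and the bone mean 15.4 ± 14.6 CPM (SD, n = 6; log2 fold change 0.11, SE 0.68, adjusted p = 0.983 by edgeR). Ly6a belongs to a family of similar neighbouring genes, and how the counting split shared reads is not given.

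S100a4 (ENSMUSG00000001020, chromosome 3, 90603771 to 90606045, plus strand) encodes a calcium-binding protein once used as a fibroblast marker. It lay between 0.673 and 5.93 CPM in bone (median 3.49) and between 0.742 and 6.97 CPM in fibrous libraries (median 2.22). The log2 fold change was -0.40 (SE 0.69, adjusted p = 0.934 by edgeR), and the gene most like it was S100a6 (rho 0.934 over 13 libraries), of the same family of calcium-binding proteins. Bone 5, with the highest leukocyte sums, had 5.77 CPM, below fibrous 2 (6.97 CPM) and bone 3 (5.93 CPM) only, and the part of leukocytes in these values was not tested. S100a4 is overlapped on its own strand by the protein-coding gene Gm42674, which is not in the matrix, and how shared reads were counted is not given.

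The remaining 3 members were close to absent. Clec3b (ENSMUSG00000025784, chromosome 9, 123150946 to 123157432, plus strand), which encodes tetranectin, a plasminogen-binding lectin, was at 0.341, 0.404 and 0.150 CPM in fibrous 2, 3 and 7 and at 0 elsewhere, with 30 counts in all. Thy1 (ENSMUSG00000032011, chromosome 9, 44043384 to 44048579, plus strand), a GPI-anchored surface glycoprotein, was at 0.403, 0.331, 0.171 and 0.470 CPM in fibrous 2, 3, 6 and 7, at 0.171 CPM in bone 5 and at 0 elsewhere. Tnxb (ENSMUSG00000033327, chromosome 17, 34670535 to 34719815, plus strand), which encodes tenascin X of the collagen matrix, was at 1.95 CPM in fibrous 2, 0.188 CPM in fibrous 7 and 0 in the other 11 libraries.

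Counts of these 3 genes came mainly from fibrous 2, 3, 6 and 7, which have Lepr of at least 60.3 CPM. Fibrous 4, with Lepr at 197 CPM, held 0 counts of all 3. The differences in mean log2(CPM + 1) were 0.16 for Clec3b (2-sided exact permutation p = 0.245), 0.20 for Thy1 (exact permutation p = 0.163) and 0.26 for Tnxb (exact permutation p = 0.538), and with Scara5 these make 4 such tests, none adjusted. At these counts a difference between the tissues was not detectable.

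No member passed edgeR's test between Lin-named and other libraries of the L002 series, where Dpp4 had the smallest p. There, Dpp4 was at 5.85 to 19.7 CPM in the 3 Lin-named libraries and at 0 to 1.34 CPM in the other 6, without overlap, as for 8.65% of all genes in that direction. Its log2 fold change of Lin-named over other libraries was 7.24 (SE 1.97, adjusted p = 0.0693 by edgeR; adjusted p = 6.37e-06 by DESeq2). Scara5 had -5.98 (SE 2.69, adjusted p = 0.205 by edgeR; adjusted p = 0.0126 by DESeq2). Of the 7 members tested, 0 passed by edgeR and 2 by DESeq2, against 3.86% and 23.7% of all genes, so that the 2 of 7 lie near the background share. The number of genes called by edgeR there ranged from 0 (without bone 1, bone 3, fibrous 3 or fibrous 4) to 1198 (without fibrous 1) when 1 library was left out.

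Lists of other cells differed in sign and size with the same names. In Lin-named over other L002 libraries the erythroid list had 8 of 8 genes above 0 (median 2.33, 1 called higher by edgeR). The shared fibroblast genes had 15 of 15 below 0 (median -3.80, 5 called lower), and the marrow stromal list (Lepr, Cxcl12 and 9 others) had 10 of 10 tested genes below 0 (median -6.46, 1 called lower). Their part in the Dpp4 and Scara5 values was not tested. Of the libraries that share a token in their names, bone 2 (plus) and bone 4 (Lin) had Dpt at 0 and 0.1003 CPM, and fibrous 2 and fibrous 5 had it at 5.95 and 6.09 CPM. Whether such a pair came from 1 animal is not stated.

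Between the series, with tissue as a term, Pi16 had a log2 fold change of XY9274 over L002 of 2.90 (SE 1.10, adjusted p = 0.154 by edgeR; adjusted p = 0.0388 by DESeq2) and Cd34 of 7.63 (SE 3.21, adjusted p = 0.186 by edgeR; adjusted p = 2.43e-05 by DESeq2). Both genes had their highest value in bone 5, a library of the XY9274 series. In the same fit the pan-leukocyte and neutrophil lists had 8 of 8 genes each above 0 (medians 1.68 and 1.39, 0 called by edgeR), the progenitor list 3 of 4 tested (median 2.14, 1 called), and the erythroid list 7 of 8 below 0 (median -2.72, 0 called). Their part in the Pi16 and Cd34 values was not tested. Of the 6 members 0 passed by edgeR and 2 by DESeq2, against 2.16% and 15.3% of all genes.

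Other fibroblast genes, taken from lists that do not hold the 10 members, had fold changes mostly above 0 in fibrous libraries, though 0 of them passed by edgeR over all genes. Of 24 other genes of Pi16-type adventitial fibroblasts, 22 were in the matrix and 16 were tested, with 14 above 0 and a median log2 fold change of 1.07. Its smallest p-values belonged to Fbn1 (fibrillin; 3.43, SE 1.35), Anxa3 (an annexin, also of neutrophils; -1.22, SE 0.58) and Fbln1 (fibulin; 2.16, SE 1.05), with adjusted p = 0.873 for each. Of 8 genes of Col15a1-type fibroblasts, 7 were tested and 7 were above 0 (median 1.597), led by Smoc2, a matricellular protein, with a mean of 73.3 ± 41.2 CPM (SD) over fibrous libraries against 26.3 ± 27.2 CPM over bone (1.597, SE 0.64, adjusted p = 0.873). Of the 15 shared fibroblast genes 14 were above 0 (median 0.93), against 51.9% of all genes. In the same fit the members stood at 3 of 6, with a median of -0.14. In the 8 libraries with Lepr, the 3 lists had 16 of 18, 7 of 7 and 14 of 15 tested genes above 0 (medians 1.35, 1.54 and 0.69), with 0 called by edgeR. As with the members, a list gene can meet the filter through fibrous libraries alone, and the genes of a list share the same libraries. These counts and medians therefore describe the lists and do not test direction.

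Fold changes mostly above 0 were not confined to fibroblast lists, and the same limit holds for the lists of other cells. Over all 13 libraries the marrow stromal, bone lineage and chondrocyte lists also lay above 0, with 11 of 11, 9 of 9 and 8 of 8 tested genes (medians 2.05, 1.07 and 0.30). Col1a1 belongs both to the bone lineage list and to the shared fibroblast genes. Below 0 lay 8 of 8 neutrophil genes (median -1.94, 5 with an unadjusted p under 0.05), 8 of 8 pan-leukocyte genes (median -1.56, 4 unadjusted) and 7 of 8 erythroid genes (median -1.19). Of these genes 0 passed by edgeR over all genes, and what the lists of other cells contribute to the fibroblast genes was not tested.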

How the data were processed

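RNA-seq libraries of 7 fibrous and 6 bone samples were analysed from the raw counts per gene that the authors deposited in one matrix (23211 Ensembl IDs, all matched to a symbol, 13 columns). The submitters' processing notes list edgeR, mm10 and hg38 without saying what each was used for. An aligner, a counting tool, an annotation release and the use of strand are not given in those sources. Coordinates and exon lengths come from GENCODE M21 (mm10).

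Tests were run with edgeR 4.0.16 under R 4.3.3: TMM factors, filterByExpr, robust dispersions, quasi-likelihood F test, name series and tissue as terms, Benjamini-Hochberg over all genes, threshold 0.05. Each SE was obtained from the fold change and the square root of F. Normalised CPM use the TMM-scaled library size. DESeq2 1.42.0 and limma 3.58.1 (voom) were alternatives. Members outside the filter had exact permutation tests with a pseudocount of 1.

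1 gene of a marker list is not reported here and was left out of that list. All members were named, as were up to 3 genes of each other list by smallest p (a subset is described). Of the 3 genes most alike by Spearman's rho with a mean of at least 1 CPM, all are given for Pi16 and Dpp4. For the other tested members only the first is given. The members and lists were chosen with earlier results of these data known.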

Additional observations from a re-analysis of the deposited data

Results flagged for a closer look

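In 18 groups with any spread, a single library lay far from the rest of its group for 6 members. Chance gives about 1 in 20 for normally distributed values, but CPM in groups mostly at 0 exceed this limit more readily, as Thy1 in bone 5 did with 8 counts, so the number of such cases says little. Bone 5 held Pi16 at 77.1 CPM against 0.0394 to 7.75 CPM in the other bone libraries, Cd34 at 65.7 CPM against 0 to 0.0414 CPM, and Thy1 at 0.171 CPM against 0. Bone 2 held Scara5 at 9.41 CPM against 0 to 0.129 CPM. Bone 1 held Dpt at 0.434 CPM, which is 11 counts, against 0 to 0.1003 CPM, and fibrous 2 held Tnxb at 1.95 CPM against 0 to 0.188 CPM. Of the 6, 3 are in bone 5, the library with the highest neutrophil and pan-leukocyte sums.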

How the results depend on the processing

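Of the 6 tested members, Dpt and Pi16 kept their sign in every fit run. Dpp4 became 1.38 by limma-voom, 1.09 with the 3-level name factor, 0.15 in XY9274 alone, 1.87 without the Lin-named libraries, and 4.28 (4.36 by DESeq2) without libraries under 5 CPM of Lepr. Cd34 became -0.49 (-0.54 by DESeq2) without a name series term and -2.40 in XY9274 alone. Ly6a became -0.45 in XY9274 alone and -0.45 without Lin-named libraries, and S100a4 0.91 without libraries low in Lepr. That setting also gave 5 of 6 members above 0 (3 over all 13 libraries) and a median of 2.59, where Cd34, Dpt and Dpp4 passed the filter only through fibrous libraries. With 1 library left out, Ly6a ran from -0.18 to 0.75, S100a4 from -0.79 to 0.046, Cd34 from 4.95 to 9.21, Dpp4 from -2.86 to -0.58, the members' median from -0.45 to 0.40 and the count above 0 from 2 to 4.

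Genes called for tissue numbered 169 by DESeq2 and 0 under the 10 other alternatives. DESeq2 called 25 for the interaction (0 by edgeR), 1982 between series (287) and 2999 for Lin-named libraries (493), the last 52 without a filter. Leaving out 1 library gave 87 to 470 between series and 0 to 1198 for Lin-named ones. The causes were not tested. DESeq2 with libraries or the series term left out, and the other lists in the 8 libraries with Lepr, were added after seeing the data. No paired analysis was possible because the labels give the tissues no shared replicate numbers. Depth limits Clec3b, Thy1 and Tnxb.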
